A study of Mus musculus with 16 samples.

Results

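The 8 genes described here encode transcription factors that govern epidermal differentiation in the mouse: Trp63, Klf4, Cebpa, Zfp750, Grhl1, Grhl3, Ovol1 and Prdm1. They were taken by name and matched to the Ensembl identifiers of the count table, which held 32989 identifiers, and all 8 were among the 19049 genes tested. RNA came from hair follicle stem cell (HFSC) organoids, grown in 3D from epidermal cells of 4 C57BL/6J mice for 2 weeks, a mixed culture in which HFSCs and their progeny coexist. Cells were sorted on α6 integrin and on CD34, a surface marker of bulge stem cells, to obtain progenitors (α6+/CD34-) and HFSCs (α6+/CD34+). Each organoid culture was left untreated or received the polyamine derivative N1-acetylspermidine (N1-AcSpd) during 72 h. Each mouse contributed 1 library to each of the 4 groups (untreated CD34-, N1-AcSpd CD34-, untreated CD34+, N1-AcSpd CD34+), making 16 libraries. The sample titles mark the untreated groups as WT (wild type) and the treated groups by the compound. WT was read here as the untreated condition, and the labels name no transgene. All cells had passed the same α6 gate, which keeps cells that carry this integrin of basal keratinocytes.

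Keratinocytes begin in a basal layer attached by integrins and then leave it, stop dividing and build the cornified barrier. Trp63 encodes p63, the factor that establishes stratified epithelium and maintains its basal cells. Zfp750, a p63 target, and Klf4 act together to switch on terminal differentiation, the grainyhead-like factors Grhl1 and Grhl3 activate genes of the barrier and of desmosomes, Cebpa couples differentiation to cell cycle exit, and Ovol1 and Prdm1 (Blimp1) are repressors that act as cells move up through the epidermis.

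Promoter sequence from RefSeq (GRCm38.p6, the build of the count table) was at hand for 5 of the 8 genes, Klf4, Grhl3, Cebpa, Prdm1 and Grhl1, in 6 windows. Windows held 250 bases before and 50 after each start and were searched on both strands for 6 motifs. GGGNGTGG (a KLF motif) was found in 17.6% of the 32851 windows of the table, TTGCNNAA (C/EBP) in 10.8%, AGNGAAAG (PRDM1) in 8.63%, CCGTTA (OVOL) in 2.76%, AACCNGTT (grainyhead-like) in 2.09% and the p63 motif in 0.712%. The KLF letters were present in 2 of the 6 windows, at -118 to -111 of Grhl3 and at -78 to -71 of Prdm1, in each case on the strand opposite to the gene. The other 5 motifs had no match in these windows. The 250 bases before the start are shown for the genes that had an entry and stood at either end of the cell type difference, Grhl3 and Prdm1 with the largest differences and Klf4 and Cebpa with the smallest, and capitals mark the KLF letters read on the opposite strand. Grhl3 lies at chr4:135573633-135573882 (minus strand), Prdm1 at chr10:44458749-44458998 (minus), Klf4 at chr4:55532476-55532725 (minus) and Cebpa at chr7:35119043-35119292 (plus), all 4 outside annotated exons and that of Prdm1 within the annotated span of the gene.
Grhl3: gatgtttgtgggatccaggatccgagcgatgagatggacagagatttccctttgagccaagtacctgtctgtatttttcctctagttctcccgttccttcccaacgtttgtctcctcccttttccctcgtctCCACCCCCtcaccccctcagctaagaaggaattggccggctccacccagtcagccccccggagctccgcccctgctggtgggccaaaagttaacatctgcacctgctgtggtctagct
Prdm1: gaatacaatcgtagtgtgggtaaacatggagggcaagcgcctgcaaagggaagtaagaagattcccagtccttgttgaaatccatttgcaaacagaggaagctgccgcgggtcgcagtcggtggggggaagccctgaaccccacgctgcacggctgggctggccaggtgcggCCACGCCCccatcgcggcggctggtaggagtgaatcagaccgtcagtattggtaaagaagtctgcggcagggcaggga
Klf4: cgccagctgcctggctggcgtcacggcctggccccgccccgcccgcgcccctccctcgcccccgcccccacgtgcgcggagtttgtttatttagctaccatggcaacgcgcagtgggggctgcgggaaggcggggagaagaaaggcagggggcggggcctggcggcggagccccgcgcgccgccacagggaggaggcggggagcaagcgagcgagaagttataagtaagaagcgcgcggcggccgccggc
Cebpa: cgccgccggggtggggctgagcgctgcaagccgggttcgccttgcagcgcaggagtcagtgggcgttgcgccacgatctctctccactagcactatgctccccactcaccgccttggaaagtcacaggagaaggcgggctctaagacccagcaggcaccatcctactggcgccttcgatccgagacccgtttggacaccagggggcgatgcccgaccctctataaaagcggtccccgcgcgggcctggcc

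Libraries held 15480075 to 29074855 UMIs, the unique tags that mark single RNA molecules, and 22142 to 24247 genes with a UMI. Levels are given as counts scaled to a common total (CPM) after TMM scaling, a correction of library size that assumes most genes to be alike. The sort was visible in the RNA: Cd34 lay between 2.87 and 3.65 CPM in the 8 CD34- libraries and between 43.4 and 64.0 CPM in the 8 CD34+ libraries, and 6 of 9 HFSC marker genes were higher in untreated CD34+ cells. Among markers of other cells, the 6 fibroblast genes summed to 0.171 to 1.52 CPM and the 4 immune genes in the table to 0.0380 to 2.03 CPM per library. The 6 melanocyte genes summed to 28.0 to 36.1 CPM and the 5 sebocyte genes in the table to 22.2 to 30.9 CPM. These sums came mostly from single genes. In untreated CD34- cells Mitf was at 19.0 and Pmel at 10.6 CPM, but Dct at 0.466 and Mlana at 0.315 CPM. Mitf and Pmel both overlap other tested genes, so their tags are uncertain. Far2 made up 24.3 of the mean sebocyte sum of 26.7 CPM in that group. Of 4 endothelial genes 2 were in the table, and Pecam1 alone ranged from 1686 to 2054 CPM. Its group means were 1985 in untreated CD34-, 1925 in N1-AcSpd CD34-, 1816 in untreated CD34+ and 1755 in N1-AcSpd CD34+ cells. The other endothelial gene was almost absent: the 2 together had a mean of 1985.32 CPM in untreated CD34- cells, against 1985.31 for Pecam1. None of the marker genes in the table was at 0 in all libraries, and the part of such cells in the results below was not tested. In sorted bulk RNA, fewer differentiating cells and less RNA of a factor per cell cannot be told apart.

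The first comparison asked how HFSCs differ from progenitors in these factors without treatment. Of the 8 genes, 7 were lower in untreated CD34+ HFSCs than in CD34- progenitors and Trp63 was higher, each passing edgeR's quasi-likelihood test at a Benjamini-Hochberg adjusted p under 0.05. Across all genes tested, 16.1% were called lower and 16.1% higher in this comparison. The median log2 fold change of the 8 was -1.62, beside 0.02 for all genes. The 4 libraries of the untreated groups did not overlap for any of the 8, which held for 16.2% of all genes in the lower and 15.9% in the higher direction. The plot of CPM by group shows this separation for each gene.

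**Figure D1:**
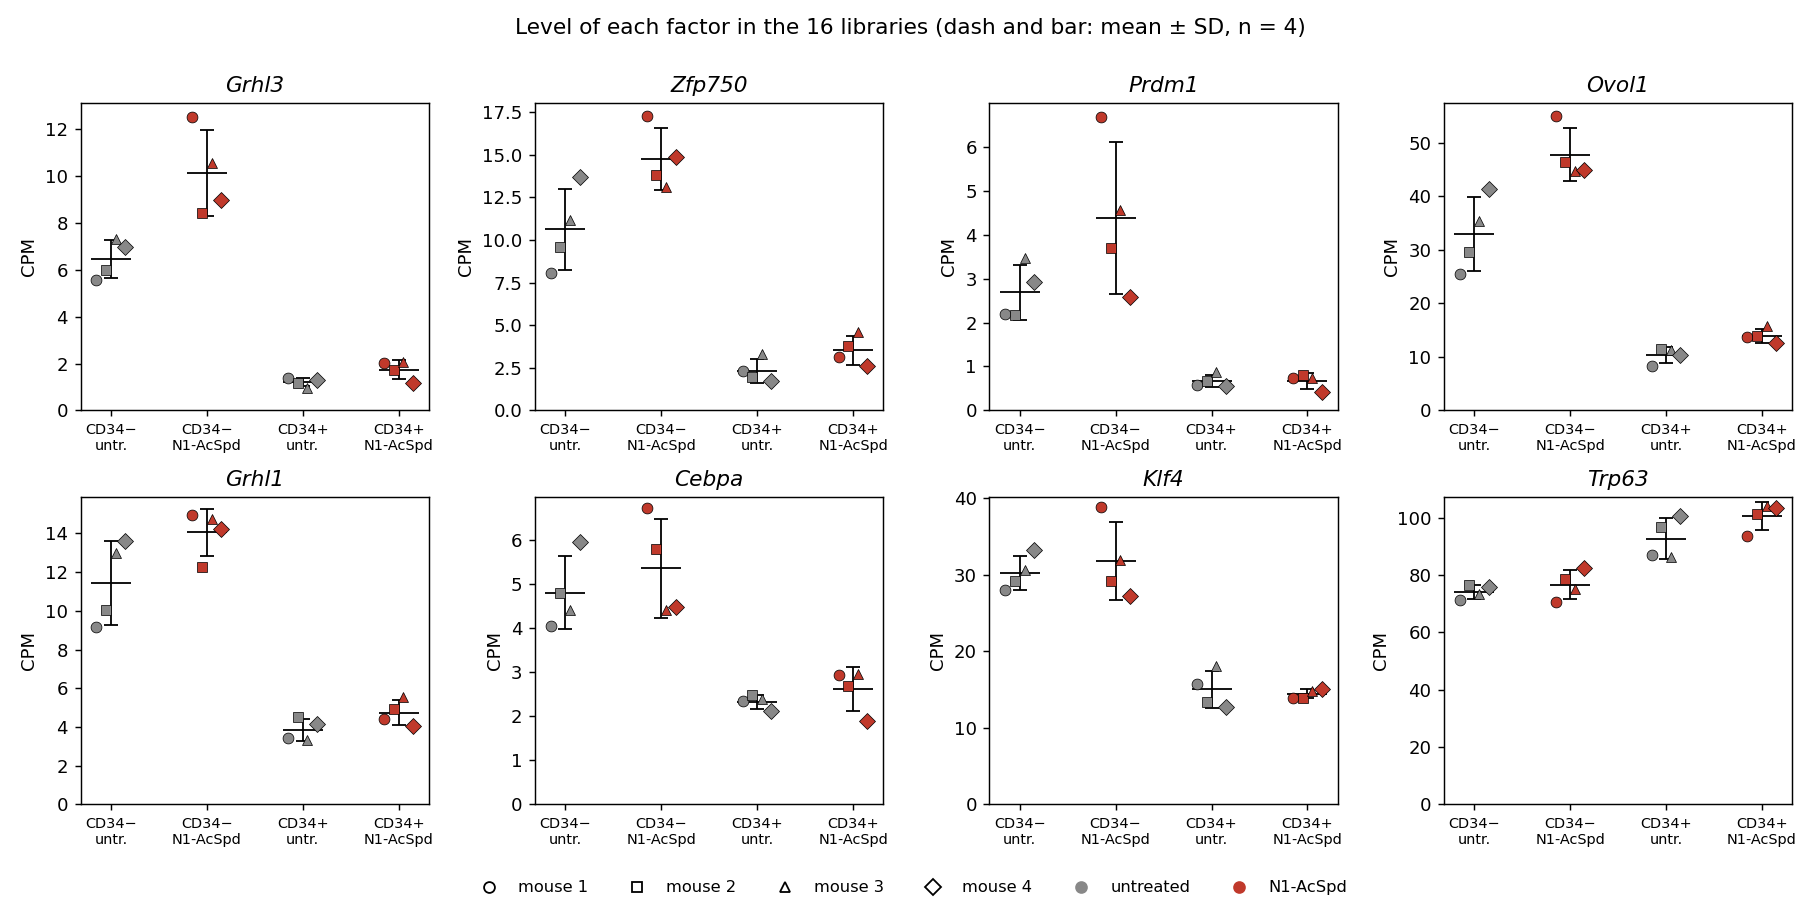
CPM (vertical axis, from 0) of the 8 factors in each of the 16 libraries, by group (horizontal axis), with mean ± SD of 4 libraries and the mouse given by the symbol. For 7 factors the CD34+ libraries lie below the CD34- libraries, while for Trp63 they lie above, as in 71.1 to 76.5 CPM for untreated CD34- against 86.3 to 101 for untreated CD34+.

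Trp63 (ENSMUSG00000022510, chromosome 16, 25683763 to 25892102, plus strand, GRCm38) stood at 71.1, 76.5, 73.4 and 75.7 CPM in the untreated CD34- libraries of mice 1 to 4. In untreated CD34+ libraries it stood at 86.8, 96.6, 86.3 and 101 CPM. The lowest HFSC library thus lay above the highest progenitor library, and the rise was 1.25-fold (log2 0.32, SE 0.06, adjusted p = 0.00102, edgeR). This was the smallest difference among the 8 and the only one below 0.5 on the log2 scale. The p63 isoforms with and without the transactivation domain start at separate promoters, and counts at the 3′ end per gene do not separate them.

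The grainyhead-like factors had the steepest and a middle-sized difference. Grhl3 (ENSMUSG00000037188, chromosome 4, 135541888 to 135573630, minus strand), which drives barrier formation, was measured at 5.55, 6.00, 7.31 and 6.99 CPM in the untreated progenitors of mice 1 to 4. In untreated HFSCs its levels were 1.36, 1.15, 0.975 and 1.28 CPM. The HFSC libraries were all far below the progenitor libraries, a 5.40-fold lower level (log2 -2.43, SE 0.18, adjusted p = 8.04e-07, edgeR). Grhl1 (ENSMUSG00000020656, chromosome 12, 24572283 to 24617391, plus strand), an activator of desmosomal cadherin genes, was at 9.16, 10.02, 12.99 and 13.6 CPM in untreated progenitors. It was at 3.41, 4.50, 3.31 and 4.16 CPM in untreated HFSCs. All 4 mice showed a lower HFSC level, 2.98-fold by the fit (log2 -1.57, SE 0.15, adjusted p = 2.81e-06, edgeR).

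Zfp750 (ENSMUSG00000039238, chromosome 11, 121510978 to 121519333, minus strand) was at 8.04, 9.58, 11.2 and 13.7 CPM in untreated progenitors. In untreated HFSCs it was at 2.33, 1.97, 3.31 and 1.69 CPM, 4.56-fold lower (log2 -2.19, SE 0.23, adjusted p = 7.43e-06, edgeR). Zfp750 lies inside Tbcd, which is read from the other strand, and counts of both may hold the same tags: Tbcd CPM less Zfp750 CPM was 11.5 ± 0.503 (SD, n = 4) in untreated progenitors and 9.13 ± 1.19 in untreated HFSCs. Klf4 (ENSMUSG00000003032, chromosome 4, 55527143 to 55532466, minus strand), its partner in terminal differentiation, was at 28.0, 29.1, 30.6 and 33.2 CPM in untreated progenitors. It was at 15.8, 13.4, 18.1 and 12.7 CPM in untreated HFSCs. Klf4 thus kept a sizeable level in HFSCs while lying below every progenitor library, and differed 2.02-fold (log2 -1.01, SE 0.12, adjusted p = 2.09e-05, edgeR).

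The repressors Ovol1 and Prdm1 were also lower in HFSCs. Ovol1 (ENSMUSG00000024922, chromosome 19, 5549136 to 5560646, minus strand) was at 25.4, 29.6, 35.4 and 41.4 CPM in untreated progenitors. It was at 8.36, 11.4, 11.3 and 10.4 CPM in untreated HFSCs, 3.18-fold lower (log2 -1.67, SE 0.14, adjusted p = 1.66e-06, edgeR). The end of Ovol1 overlaps Gm31166 on the other strand, whose counts were 92.1% of those of Ovol1 in all (89.5 to 94.7% per library), so the source of these tags cannot be told apart. Prdm1 (ENSMUSG00000038151, chromosome 10, 44437177 to 44528501, minus strand) had the fewest tags, 7 to 162 UMIs per library. It was at 2.19, 2.17, 3.46 and 2.93 CPM in untreated progenitors. In untreated HFSCs it was at 0.569, 0.658, 0.867 and 0.565 CPM. All HFSC libraries lay below all progenitor libraries, 4.03-fold by the fit (log2 -2.01, SE 0.30, adjusted p = 0.000167, edgeR).

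Cebpa (ENSMUSG00000034957, chromosome 7, 35119293 to 35121928, plus strand) was at 4.04, 4.79, 4.41 and 5.95 CPM in untreated progenitors. It was at 2.33, 2.47, 2.38 and 2.11 CPM in untreated HFSCs. The 4 HFSC libraries were close to each other and 2.06-fold below the progenitors (log2 -1.05, SE 0.17, adjusted p = 0.000387, edgeR). Its antisense neighbour Gm45091 had at most 1 UMI in a library.

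In N1-AcSpd-treated cells the cell type difference had the same direction for all 8 factors, and again 7 were called lower and 1 higher, beside 16.8% and 16.5% of all genes. No CD34+ library overlapped a CD34- library for any of the 8, as for 18.3% of all genes in the lower and 16.1% in the higher direction. Treated CD34+ cells had 1.74 ± 0.413 CPM of Grhl3 (SD, n = 4) against 10.1 ± 1.84 in treated CD34- cells (log2 -2.53, SE 0.18, adjusted p = 4.46e-07, edgeR). Prdm1 showed the largest value, 0.671 ± 0.176 against 4.38 ± 1.74 CPM (log2 -2.69, SE 0.30, adjusted p = 1.13e-05, edgeR). Zfp750 followed with log2 -2.07, then Ovol1 with -1.77, Grhl1 with -1.57, Klf4 with -1.14 and Cebpa with -1.03. Trp63 was again higher in HFSCs, by 0.39 on the log2 scale. The median over the 8 was -1.67 and that over all genes -0.01.

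**Figure D2:**
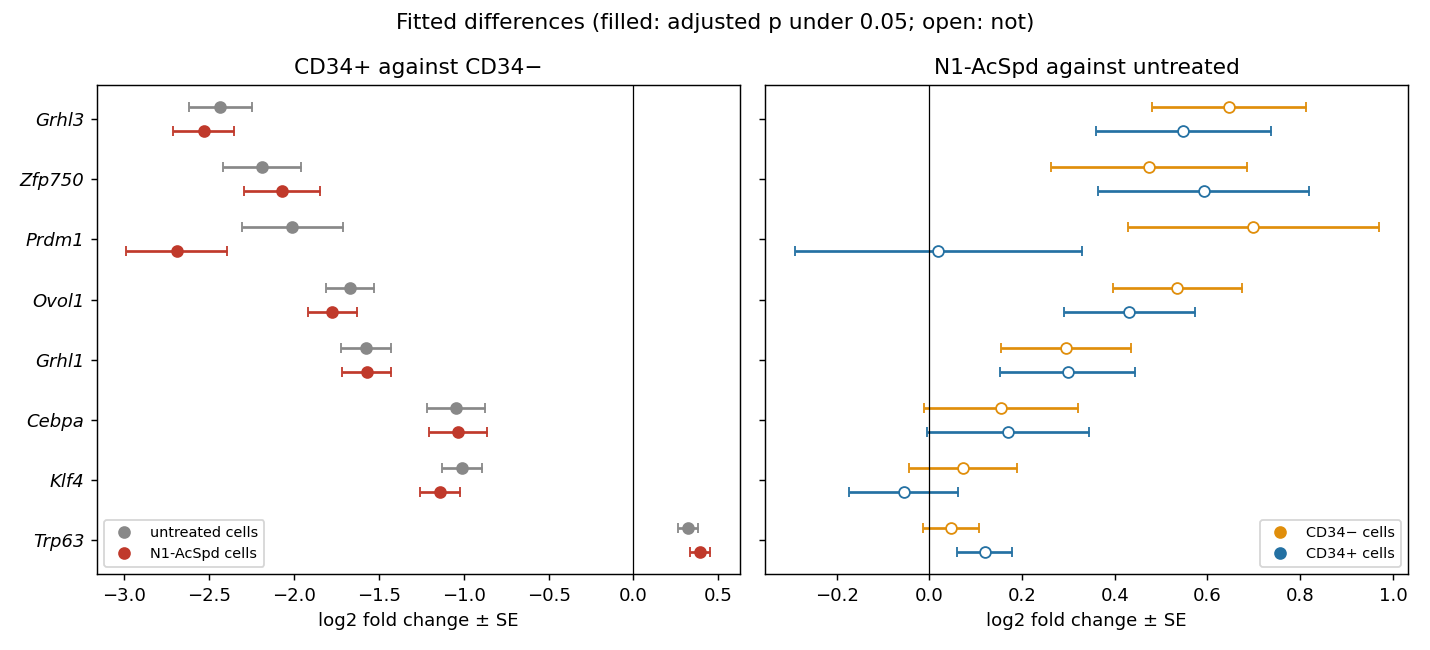
Fitted log2 fold change ± SE (horizontal axis) of each factor (vertical axis): left, CD34+ against CD34- cells in untreated and N1-AcSpd cells, right, N1-AcSpd against untreated cells in each cell type. Filled points passed an adjusted p of 0.05. All points on the left are filled, from -2.69 for Prdm1 to 0.39 for Trp63, and none on the right.

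When CPM was scaled by library totals alone, without TMM, the median log2 fold change of all genes in untreated cells was 0.14 rather than 0.02, and 4861 genes were called higher against 1762 lower, where TMM gave 3059 and 3064. In N1-AcSpd cells the split was 4792 higher against 1904 lower, where TMM gave 3147 and 3199. Under library totals the same 7 factors remained lower and Trp63 remained higher, with log2 differences of 0.44 without and 0.51 with treatment.

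The comparisons of N1-AcSpd with untreated cells asked whether the acetylated polyamine changed the factors within a cell type. No factor passed edgeR's test after adjustment in CD34- cells, beside 0.614% of all genes, and none in CD34+ cells, beside 0.325%. At an unadjusted p under 0.05, 4 of 8 factors passed in CD34- cells (all genes 13.6%) and 3 of 8 in CD34+ cells (all genes 13.2%). DESeq2, the tool the study used, called Grhl3 (adjusted p = 0.00852) and Ovol1 (adjusted p = 0.00835) in CD34- cells and no factor in CD34+ cells. It also called more genes in all, 558 of 19049 in CD34- and 423 in CD34+ cells. For Prdm1 and Cebpa it gave no adjusted p because of their low counts. With the mouse as a replicate block, edgeR called 349 genes rather than 117 in CD34- cells and 152 rather than 62 in CD34+ cells, but still no factor. In that blocked fit Grhl3 had an adjusted p of 0.0841 and Ovol1 one of 0.0904 in CD34- cells. The fitted values were above 0 for 8 of 8 factors in CD34- cells, with a median log2 fold change of 0.38 against 0.00012 for all genes. They were above 0 for 7 of 8 in CD34+ cells, with a median of 0.23 against -0.01. The factors were measured in the same libraries, so these counts are not independent of each other.

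Grhl3 and Ovol1 had the smallest p in CD34- cells. Grhl3 was at 12.5, 8.44, 10.6 and 8.98 CPM in treated CD34- cells of mice 1 to 4, against the untreated 5.55, 6.00, 7.31 and 6.99. The groups did not overlap, and the fitted difference was 1.57-fold (log2 0.65, SE 0.17, adjusted p = 0.0990, edgeR). Ovol1 was at 55.1, 46.5, 44.7 and 44.9 CPM in treated CD34- cells, against the untreated 25.4, 29.6, 35.4 and 41.4. These groups did not overlap either (log2 0.54, SE 0.14, adjusted p = 0.102, edgeR). Groups that did not overlap, with treated libraries higher, were seen in 4.91% of all genes in CD34- cells and, with Ovol1 the only factor, in 3.38% in CD34+ cells. In CD34+ cells Ovol1 was at 13.7, 13.9, 15.7 and 12.6 CPM treated against 8.36, 11.4, 11.3 and 10.4 untreated (log2 0.43, SE 0.14, adjusted p = 0.218, edgeR).

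Prdm1 had the largest fitted value in CD34- cells without passing the test: 6.68, 3.69, 4.56 and 2.58 CPM treated against 2.19, 2.17, 3.46 and 2.93 untreated (log2 0.70, SE 0.27, adjusted p = 0.272, edgeR). In CD34+ cells Prdm1 was at 0.742, 0.796, 0.736 and 0.411 CPM treated, within the range of the untreated libraries except for mouse 4 (log2 0.02, SE 0.31, adjusted p = 1, edgeR). Zfp750 was at 17.2, 13.8, 13.1 and 14.8 CPM in treated CD34- cells and overlapped the untreated libraries (log2 0.47, SE 0.21, adjusted p = 0.346, edgeR). In CD34+ cells it was at 3.12, 3.75, 4.60 and 2.58 CPM treated (log2 0.59, SE 0.23, adjusted p = 0.290, edgeR). Grhl3 in CD34+ cells was at 2.00, 1.71, 2.09 and 1.17 CPM treated (log2 0.55, SE 0.19, adjusted p = 0.241, edgeR). Grhl1 differed by 0.30 on the log2 scale in both cell types (SE 0.14 in CD34- and 0.15 in CD34+ cells, neither called). For Klf4 the values were 0.07 and -0.05, for Cebpa 0.16 and 0.17, and for Trp63 0.05 and 0.12 in CD34- and CD34+ cells.

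In CD34- cells the treatment difference was largest in mouse 1. Within-mouse log2 differences of Grhl3 were 1.16 in mouse 1, 0.49 in mouse 2, 0.52 in mouse 3 and 0.36 in mouse 4. For Ovol1 they were 1.11, 0.65, 0.33 and 0.12, and for Prdm1 1.57, 0.74, 0.39 and -0.18. Mouse 1 had the largest of the 4 differences for 7 of 8 factors, Trp63 being the exception, and mouse 4 the smallest for the same 7. Among 16258 tested genes with a count in every library, mouse 1 was the largest for 24.0% and mouse 4 the smallest for 25.8%. Without mouse 1, Grhl3 was at 0.46 (adjusted p = 0.386, edgeR), Ovol1 at 0.35 (adjusted p = 0.315), Zfp750 at 0.28 (adjusted p = 0.790) and Prdm1 at 0.34 (adjusted p = 0.766). The summed level of the late differentiation products described below moved with it: 3008, 2982, 3710 and 3868 CPM in untreated and 4843, 3621, 3856 and 3594 CPM in treated CD34- libraries of mice 1 to 4, so it was higher after treatment in mouse 1 and lower in mouse 4. A within-mouse difference depends on both libraries of the mouse. Among untreated CD34- libraries, Ovol1 was lowest in mouse 1 (25.4 CPM) and highest in mouse 4 (41.4 CPM). Among treated CD34- libraries it was highest in mouse 1 (55.1 CPM). Klf4, Grhl1, Grhl3, Zfp750 and Cebpa were likewise lowest untreated and highest treated in mouse 1. Same-mouse libraries were hardly correlated in their deviations (mean 0.028, against -0.0093 for other pairs). What set mouse 1 apart was not tested. In CD34+ cells mice 1 and 3 were each the largest for 3 of 8 factors. Mouse 4 was there the smallest for 6 of 8 factors and for 17 of 27 late products, beside 27.0% of all genes.

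**Figure D3:**
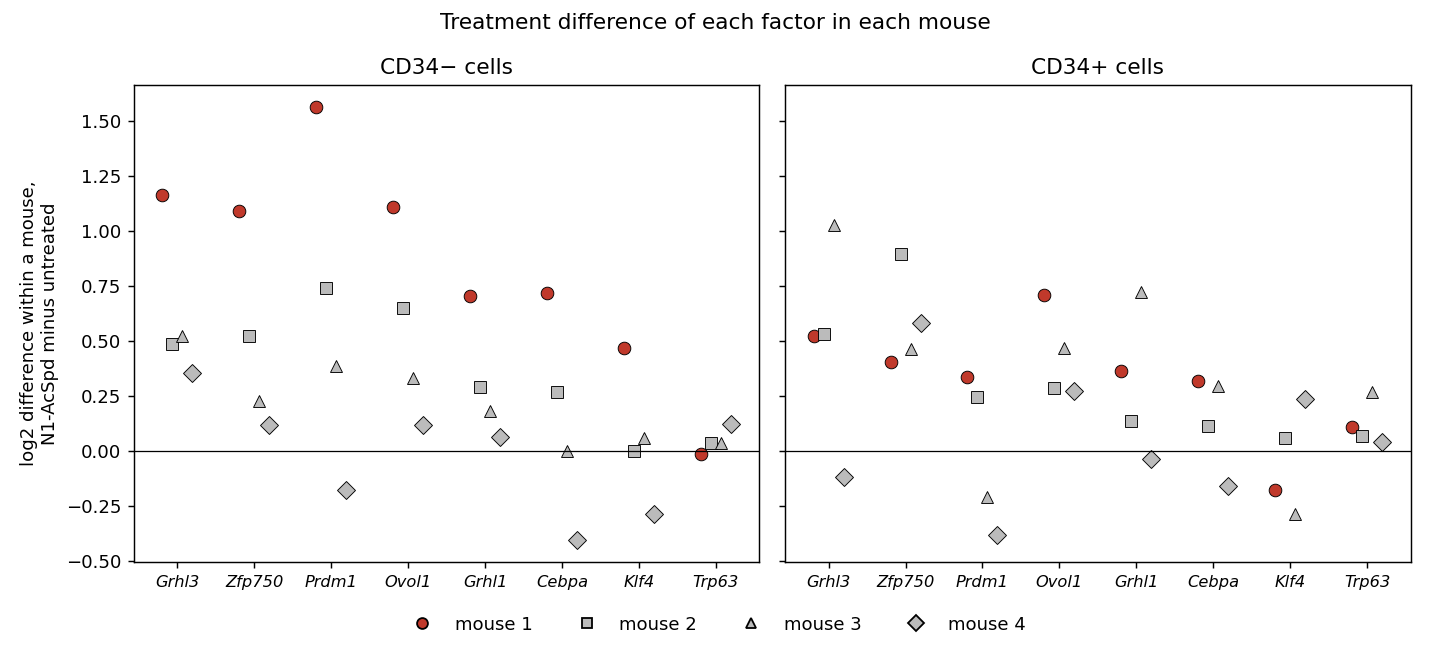
Log2 difference between the N1-AcSpd and the untreated library of the same mouse (vertical axis) for each factor (horizontal axis), in CD34- cells (left) and CD34+ cells (right), with mouse 1 in red. In CD34- cells mouse 1 lies above the other mice for 7 of 8 factors, reaching 1.57 for Prdm1.

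The interaction asked whether the cell type difference itself changed with treatment. No factor passed, edgeR called 0% of all genes, and no factor had an unadjusted p under 0.05 either, beside 4.19% of all genes. DESeq2 called 72 genes, none of them a factor. Prdm1 had the smallest p among the factors (log2 -0.68, SE 0.41, unadjusted p = 0.123, edgeR), with within-mouse values of -1.23, -0.50, -0.60 and -0.21 in mice 1 to 4. Mouse 1 lay furthest from 0, and the fitted value was -0.40 without its treated CD34- library and -0.44 without this mouse. The other 7 values ran from -0.13 to 0.12.

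The factors were set beside 5 lists of related genes. For comparison, 16.1% of all genes were called lower and 16.1% higher in untreated HFSCs, and 16.8% lower in N1-AcSpd HFSCs. Under treatment 13.6% of all genes in CD34- and 13.2% in CD34+ cells had an unadjusted p under 0.05, in either direction. Of 30 late differentiation products, 27 were tested and all 27 were lower in untreated and in N1-AcSpd HFSCs, with medians of -2.38 and -2.36 on the log2 scale. Sbsn (suprabasin, log2 -1.41) and Dmkn (dermokine, log2 -0.71), secreted proteins of upper keratinocytes, had the smallest p. Sbsn overlaps a gene model on its own strand, and its tags are uncertain to that extent. Under treatment none of the 27 was called, and 25 were above 0 in CD34- and 22 in CD34+ cells, with medians of 0.32 and 0.28. At an unadjusted p under 0.05, 7 passed in CD34- and 6 in CD34+ cells, all of them higher.

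Other epidermal transcription factors split in direction. Of 27 tested, 7 were higher and 10 lower in untreated HFSCs, with a median of -0.14. On the higher side, those with the smallest p were Barx2, a homeobox factor (log2 1.39), and Tfap2b, an AP-2 factor (log2 1.10). Under treatment none was called in either cell type, and 4 of 27 were higher and 3 lower at an unadjusted p under 0.05 in CD34- cells, and 4 and 2 in CD34+ cells.

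Relatives from the same gene families did not move as a block. Of 25 tested, 7 were higher, 6 lower and 12 not called in untreated HFSCs, with a median of 0.02. In the grainyhead-like family Grhl2, which maintains epithelial junctions, was lower by a smaller amount than Grhl1 and Grhl3 (log2 -0.38, SE 0.06), and an overlapping antisense model has counts as high. In the OVO-like family Ovol2, which maintains epithelial identity, was higher in HFSCs (log2 0.95), opposite to Ovol1. Among C/EBP genes Cebpd (log2 1.28) and, by a small amount, Cebpb (log2 0.14) were higher, opposite to Cebpa. Among p53 relatives Trp73, a kin of Trp63, was higher by 1.10 on the log2 scale without and by 1.51 with treatment. Among KLF genes Klf15 (log2 1.93), Klf13 (log2 0.57) and Klf9 (log2 0.81) were higher, and Klf3 (log2 -0.84), Klf5 (log2 -0.38), Klf6 (log2 -0.36), Klf7 (log2 -0.50) and Klf10 (log2 -0.19) were lower along with Klf4. None of the relatives was called under treatment in either cell type.

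**Figure D4:**
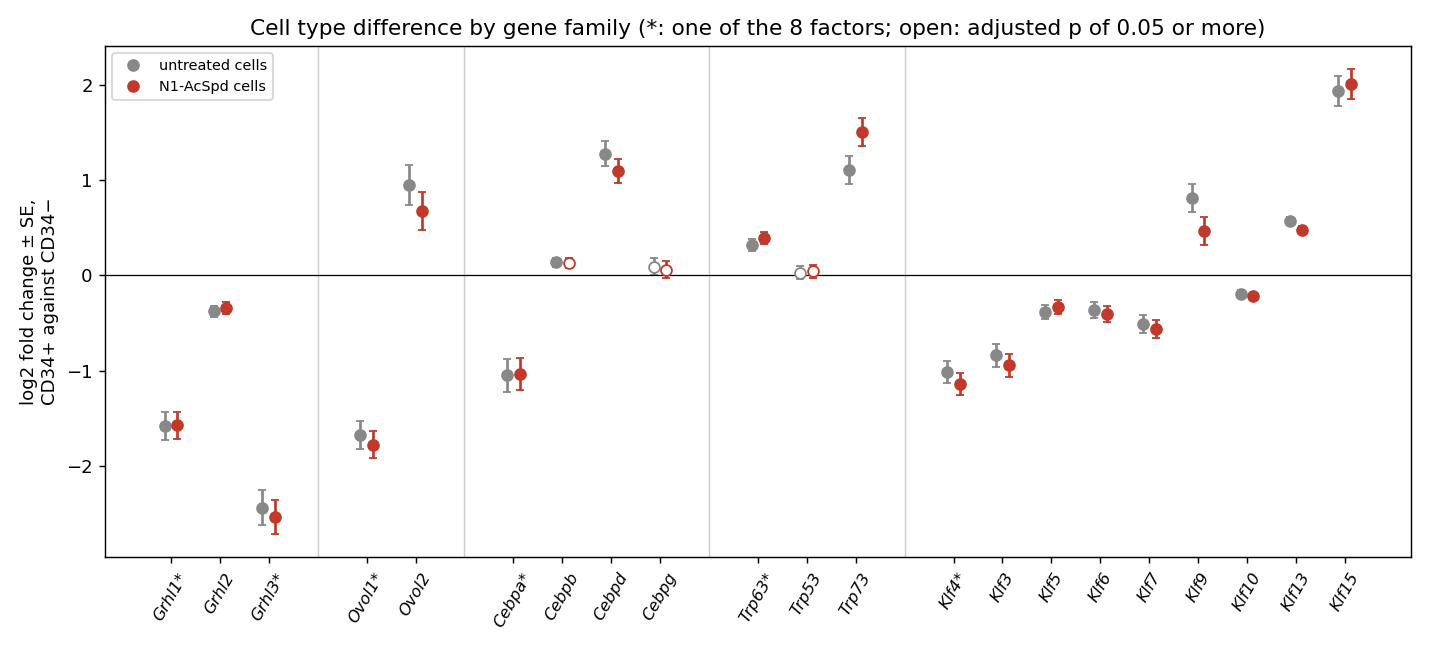
Log2 fold change ± SE of CD34+ against CD34- cells (vertical axis) for the factors (marked with an asterisk) and relatives of the same families (horizontal axis), in untreated and N1-AcSpd cells. Filled points passed an adjusted p of 0.05. Members of some families point in different directions, as Ovol1 at -1.67 and Ovol2 at 0.95 in untreated cells, while Grhl1, Grhl2 and Grhl3 were all lower.

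Basal keratinocyte and p63 target genes were followed because Trp63 was higher in HFSCs. Of 18 tested, 3 were higher, 7 lower and 8 not called in untreated HFSCs, with a median of -0.06. Krt15, a keratin of bulge stem cells, was higher by 3.35 on the log2 scale and Col17a1, a hemidesmosomal collagen, by 0.24. Perp, a desmosomal p63 target, was lower (log2 -0.37). None was called under treatment. At an unadjusted p under 0.05 (edgeR), 6 of 18 were lower and 1 higher in CD34- cells, where the list median was -0.09 on the log2 scale. In CD34+ cells 2 were lower and 0 higher. Of 9 HFSC markers, 6 were called higher, led by Cd34, the sort marker itself (log2 3.97), and Nfatc1, a factor of bulge quiescence (log2 1.22). Under treatment Nfatc1 was lower in CD34- cells (log2 -0.35, adjusted p = 0.0480, edgeR), and it was the only gene of the lists called there, with none in CD34+ cells. Of the genes chosen as markers of other cells, Mitf (log2 0.28, melanocyte) was higher and Col1a2 (log2 -2.19, fibroblast), Pecam1 (log2 -0.13, endothelial) and Scd3 (log2 -0.71, sebocyte) were lower in untreated HFSCs. The other tested genes of these lists, Dct, Pmel, Mlana, Lum, Ptprc and Far2, were not called. Col1a2 was near the floor, with means of 0.326 CPM in untreated progenitors and 0.068 in untreated HFSCs. Mitf overlaps a gene model with near-equal counts.

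**Figure D5:**
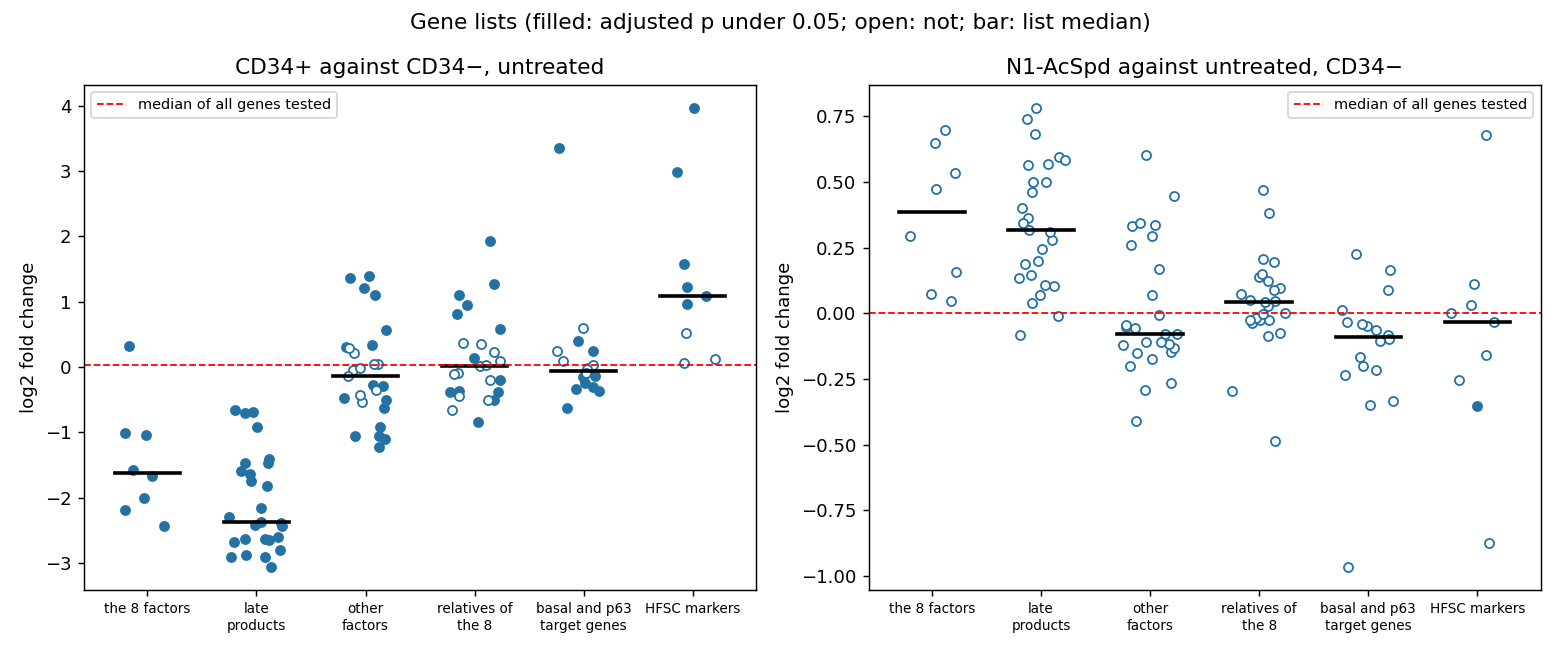
Log2 fold change (vertical axis) of single genes in the factors and 5 lists (horizontal axis), for CD34+ against CD34- untreated cells (left) and for N1-AcSpd against untreated CD34- cells (right), with bars for list medians and a dashed line for the median of all genes tested. On the left the factors (median -1.62) and late products (-2.38) lie below the line, and on the right their medians, 0.38 and 0.32, lie above it with no gene of either passing the test.

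The pattern of each factor over the 16 libraries was compared with that of 9412 genes whose mean count reached 50, by the root mean square difference of log2 CPM after centring each gene on its own mean. The genes closest to Grhl3 were Tgm1, the transglutaminase of the cornified envelope (0.180), Metrnl (0.204) and Cdsn, corneodesmosin (0.229), against a spread of 1.26 for Grhl3 itself. Tgm1 overlaps a gene model with near-equal counts. Closest to Ovol1 were Ivl, involucrin (0.149), Lypd3 (0.150) and Sult2b1 (0.153), which overlaps a gene model with 23.4% of its counts. Closest to Grhl1 were Gltp (0.126), Krt16 (0.160) and Mxd1 (0.175). Closest to Zfp750 were the connexin gene Gjb6 (0.170), Gml (0.225) and Sprr2h (0.226), and closest to Prdm1 were Sprr2e (0.243), the claudin gene Cldn4 (0.251) and Ablim1 (0.270). Sprr2 genes belong to a family of near-identical copies, and their counts are uncertain. Closest to Klf4 were Cnksr3 (0.110), the defensin gene Defb1 (0.113) and Rab25 (0.155), closest to Cebpa were Tubb2a (0.150), Ier5 (0.150) and Tbcd (0.166), and closest to Trp63 were Mcm9 (0.060), Icam1 (0.061) and Tsen15 (0.065), for which counts of Mcm9 and Icam1 overlap other models. Among the factors themselves, Grhl1 and Ovol1 were the nearest pair (0.180), followed by Klf4 and Cebpa (0.218) and by Ovol1 and Zfp750 (0.299). A distance has to be read beside the spread of the factor, which was only 0.198 for Trp63, against 0.907 for Ovol1. The small distances to Trp63 therefore do not mark a closer match. All distances describe the same 16 libraries, which share the cell type difference and their depth.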

How the data were processed

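RNA of sorted organoid cells was measured by 3′ RNA-seq with UMIs. The authors separated reads with FLEXBAR, pseudo-aligned the second read to mm10 with kallisto (version 0.45.0 in the submitters' processing notes), assigned tags with bedtools and counted the distinct UMIs of each gene. FastQC 0.11.7 is named as well. The annotation release and the strand setting are not given in the sources used here, so overlapping genes cannot be told apart. The deposited values are these raw counts, with no normalization. The 156050 empty cells were read as 0, and 62 identifiers absent from GENCODE M21 held 0.116% of counts. No column lacked a sample.

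The 19049 genes whose mean count reached 5 went into edgeR 4.0.16 (R 4.3.3), with TMM scaling and 1 mean for each of the 4 groups over all 16 libraries. Standard errors were derived from F, as the absolute log2 fold change over its square root. Benjamini-Hochberg adjustment ran over all genes, and an adjusted p under 0.05 counted as called. Within-mouse log2 differences used a prior count of 2. The procedure was tested on simulated data. DESeq2 1.42.0 and the other alternatives are given at the end. The 8 factors and the gene lists were chosen with earlier results of these data known. Genes were named by rule: all 8 factors, the 3 genes closest to each, and from each list the 2 smallest p per direction between untreated cell types and up to 3 called genes per direction under treatment. The relatives Ovol2, Cebpb, Cebpd, Trp73, Klf5, Klf6, Klf7, Klf9 and Klf10 were named after their values were seen. Replicate numbers were read as mice, since the paper reports untreated and treated cells of 4 donors. Libraries were paired by mouse only in the within-mouse differences and in the fit with the mouse as a block. The main fit did not use this pairing. Deviations from group means of same-mouse libraries had a mean correlation of 0.028 (-0.112 to 0.128, 24 pairs), against -0.0093 for other pairs. Library pairs of a group had a chi-square of at least 27.9 per degree of freedom, so none was a copy. Depth of 15480075 to 29074855 UMIs limits factors of few tags, such as Prdm1 with 7 UMIs in its lowest library. Protein sequences were not used here. Some genes that the naming rule selects are not reported here.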

Additional observations from a re-analysis of the deposited data

Results flagged for a closer look

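Prdm1 in the N1-AcSpd CD34+ library of mouse 4 stood at 0.411 CPM, below the 0.736 to 0.796 CPM of the other 3 mice, a gap of 0.843 of the range of the group and above the 95% critical value of Dixon's test for 4 samples. This was the only one of 32 groups of 4 libraries (8 factors in 4 groups) in which a library stood apart this far, and chance gives about 1 in 20. The library held 7 UMIs of the gene.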

How the results depend on the processing

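The counts of factors called in the cell type comparisons (8 and 8), in the treatment comparisons (0 and 0) and in the interaction (0) kept their value under all alternatives run, except for DESeq2, which called 2 factors (Grhl3 and Ovol1) in CD34- cells, and the added requirement of a log2 difference over 0.5, which Trp63 did not meet. The cause of the difference between tools was not tested. Numbers of genes called over all settings ran from 2913 to 6623 (main 6123) and from 3197 to 6696 (main 6346) in the cell type comparisons, from 0 to 558 (main 117) and from 3 to 423 (main 62) under treatment in CD34- and CD34+ cells, and from 0 to 72 (main 0) in the interaction. The highest treatment and interaction counts came from DESeq2 and the 0 in CD34- cells from a fit of the compared groups alone. With mouse as a replicate block, the pairing changed no call of a factor, and the log2 interaction value of Grhl1 was -0.0081 in place of 0.0034 (-0.0134 after thinning all libraries to the smallest). Values that changed sign were all uncalled. Leaving out 1 library or mouse gave ranges of -0.074 to 0.187 for Klf4 and -0.048 to 0.353 for Cebpa under treatment in CD34- cells, and of -0.145 to 0.067 for Klf4 and -0.102 to 0.191 for Prdm1 in CD34+ cells, where Prdm1 was -0.079 after thinning. For the interaction the ranges were -0.333 to 0.060 for Klf4, -0.188 to 0.109 for Grhl1, -0.322 to 0.076 for Grhl3, -0.232 to 0.0024 for Ovol1, -0.036 to 0.371 for Zfp750 and -0.107 to 0.155 for Cebpa.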

Other observations

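The balance of the grainyhead-like factors is given as a description only, since the ratio was chosen after the values were seen. An exact permutation test was run on it, but for this reason its p-values are not used. The log2 ratio of Grhl3 to Grhl1 CPM was -0.81 ± 0.11 (SD, n = 4) in untreated CD34- and -1.69 ± 0.27 in untreated CD34+ cells, a difference of -0.87. In N1-AcSpd cells the ratio was -0.49 ± 0.17 in CD34- and -1.47 ± 0.27 in CD34+ cells, a difference of -0.98. The mean ratio of treated cells lay above that of untreated cells by 0.33 in CD34- and by 0.22 in CD34+ cells.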
